A study of Mus musculus with 12 samples.

Results

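Norepinephrine is made and handled by a small set of genes, and 9 of them were followed here in whole mouse embryos: the synthesis enzymes *Th*, *Ddc* and *Dbh*, the vesicular transporters *Slc18a1* and *Slc18a2*, the reuptake transporter *Slc6a2*, the transcription factors *Phox2a* and *Gata3*, and the granule protein gene *Chgb*. They are 9 of the 23420 genes in the count tables, and each was found by its symbol in both tables. *Dbh* was chosen by its fold change in the *Pax3* line of these same data, where its counts were much lower in null than in wild-type embryos, and the other 8 as genes of its pathway or its regulators. Differences of the 9 genes in the *Pax3* line are therefore given as a description without a test. The rule of choice used no value of the *Carm1* line, and the 9 genes were tested there, though earlier results of these data were known.

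Polyadenylated RNA was sequenced from embryos collected at embryonic day 12.5 (E12.5) in 4 groups of 3 libraries. In the *Carm1* line, embryos homozygous for the null allele Carm1tm1Mtb (*Carm1* KO/KO), which lacks the protein arginine methyltransferase CARM1 in all cells, were compared with wild-type embryos on a C57BL/6 background. In the *Pax3* line, embryos homozygous for the splotch allele Sp2H (*Pax3* Sp2H/Sp2H), a small deletion in the gene of the neural crest and muscle transcription factor PAX3, were compared with wild-type embryos of a closed colony of mixed CBA/Ca, 101 and C3H/He origin. Both alleles act in the whole embryo, no treatment was given, and the 2 lines differ in strain and colony as well as in the mutated gene, so a difference between the lines cannot be told apart from a difference between the colonies. Whether littermates are among the samples was not given in the sources used here. P values set the difference between null and wild type against the spread between these embryos. They cannot be taken to cover the spread between litters.

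The total counts per library lay between 17183344 and 23518692, and the correlation of log2 CPM (counts scaled to a common library size) between replicates of a group between 0.993 and 0.997. Y-linked counts were present in 4 of the 12 libraries, of which 1 was a *Carm1*-line wild type, 1 a *Pax3* null and 2 were *Pax3*-line wild types. *Carm1* itself stood at 72.3 ± 3.55 CPM (SD, n = 3) in *Carm1* null and 144 ± 6.99 CPM in wild-type embryos (log2 fold change -1.0, SE 0.05, FDR adjusted P = 1.2e-15). *Pax3* stood at 20.8 ± 2.4 CPM in *Pax3* null and 28.1 ± 2.99 CPM in wild-type embryos (log2 fold change -0.43, SE 0.095, FDR adjusted P = 0.0014), so a transcript persists from the mutant allele. *Pax3* was higher in *Carm1* null embryos, at 29.0 ± 1.52 against 22.3 ± 1.86 CPM (log2 fold change 0.37, SE 0.078, FDR adjusted P = 0.001).

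Sympathetic neurons and the chromaffin cells of the adrenal medulla arise from trunk neural crest cells that gather beside the dorsal aorta. There they switch on the homeodomain factor *Phox2a* and then *Hand2* and *Gata3*, which drive the noradrenergic genes. Tyrosine hydroxylase (*Th*) converts tyrosine to L-DOPA, aromatic L-amino acid decarboxylase (*Ddc*) converts L-DOPA to dopamine, vesicular transporters load dopamine into vesicles, and dopamine beta-hydroxylase (*Dbh*) converts it to norepinephrine inside them. *Th*, *Ddc* and *Slc18a2* also serve dopamine neurons, and *Ddc* and *Slc18a2* serotonin neurons, whereas *Dbh* and *Slc6a2* mark noradrenergic cells.

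The windows around the RefSeq starts of *Dbh* and *Th* are shown because *Dbh* was far lower in *Pax3* null than in wild-type embryos, while *Th*, which acts earlier in the same pathway, differed much less. Each runs from 250 bases before to 50 bases after the start (build GRCm38.p6), read 5′ to 3′ on the strand of the gene. The window of *Dbh* is chr2:27165257-27165556 on the plus strand and that of *Th* chr7:142899946-142900245 on the minus strand, and the GENCODE gene models of both genes begin upstream of these windows. Capitals mark the homeodomain core ATTA on either strand (TAAT on the other) and the cAMP response element TGACGTCA, which reads the same on both strands.
Dbh: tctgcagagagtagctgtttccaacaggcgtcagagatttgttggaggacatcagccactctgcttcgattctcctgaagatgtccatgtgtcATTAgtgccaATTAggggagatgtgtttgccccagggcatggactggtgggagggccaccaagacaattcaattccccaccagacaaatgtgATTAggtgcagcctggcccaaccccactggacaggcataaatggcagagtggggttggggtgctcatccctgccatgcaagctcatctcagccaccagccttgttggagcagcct
Th: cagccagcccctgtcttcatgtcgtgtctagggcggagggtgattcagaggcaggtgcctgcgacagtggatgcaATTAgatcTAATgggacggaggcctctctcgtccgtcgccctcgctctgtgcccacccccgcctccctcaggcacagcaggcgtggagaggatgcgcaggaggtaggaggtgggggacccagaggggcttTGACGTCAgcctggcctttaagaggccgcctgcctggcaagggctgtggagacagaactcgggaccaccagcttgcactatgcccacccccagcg

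The core ATTA, a letter string recognised by many homeodomain proteins, occurred 3 times in the *Dbh* window, at bases -157, -147 and -65 from the start, and 2 times in the *Th* window, at -175 and -167. The motif TGACGTCA occurred in the *Th* window at -45 and not in the *Dbh* window. Over all 32851 windows of this length, 58.0% held ATTA on either strand and 1.79% held TGACGTCA, so the first is common and the second uncommon. RefSeq gave windows for 7 of the 9 genes. TGACGTCA was also in the windows of *Slc18a2* and *Chgb*, and ATTA in those of *Ddc* and *Slc18a2*, while *Phox2a* and *Gata3* held neither. The paired-domain core GTCACGC, present in 2.09% of all windows on either strand, was in none of the 8 windows of these 7 genes (*Ddc* has 2), and the GATA motif AGATAA, present in 11.2%, was only in that of *Slc18a2*, where it overlapped the ATTA match. These matches are descriptions of letters, not of binding.

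*Dbh* (chromosome 2, 27165233 to 27183200, plus strand) held 13, 11 and 9 counts in the 3 *Pax3* null libraries, or 0.581, 0.501 and 0.382 CPM. In the wild-type libraries of that line it held 54, 37 and 67 counts, or 2.63, 2.14 and 2.88 CPM. All null libraries lay below all wild-type libraries, with a gap from 0.581 to 2.14 CPM between the groups. The mean of the 3 null libraries was 0.488 ± 0.1 CPM (SD) and that of the 3 wild-type libraries 2.55 ± 0.375 CPM, a fitted log2 fold change of -2.39 (SE 0.30), or 5.24-fold lower. Over the 3 libraries together, 33 counts in null embryos gave 0.485 CPM (without TMM scaling) with an exact Poisson 95% interval of 0.334 to 0.681, and 158 counts in wild-type embryos gave 2.59 with an interval of 2.2 to 3.03, intervals that cover counting error only. Of the 14620 genes tested in this line whose mean reached 1 CPM, 1 had a log2 fold change this low, *Dbh* itself, or 0.00684% of them, and nothing is read from this because the fall is what *Dbh* was chosen for. The log2 fold change was between -2.53 and -2.24 when each library was left out in turn and between -2.5 and -2.38 under the other processing alternatives. In whole embryos, fewer cells of a type and less RNA per cell cannot be told apart, for *Dbh* and for every gene below.

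In embryos of the *Carm1* line *Dbh* held 57, 68 and 75 counts in null libraries (3.13, 3.81 and 4.42 CPM) and 68, 111 and 75 in wild-type libraries (4.03, 4.77 and 3.66 CPM). The groups overlapped, and the log2 fold change of -0.14 (SE 0.19, 95% interval -0.52 to 0.24) did not pass edgeR's quasi-likelihood test at an adjusted threshold of 0.05 (Benjamini-Hochberg; FDR adjusted P = 0.68). That interval reaches from a moderate fall to a small rise.

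*Th* (chromosome 7, 142892752 to 142931128, minus strand), the first and rate-limiting enzyme of the pathway, held 83, 65 and 94 counts in *Pax3* null libraries (3.71, 2.96 and 3.99 CPM) and 92, 89 and 93 in wild-type libraries (4.49, 5.15 and 4.0 CPM). The groups did not overlap, but only narrowly, since the highest null library reached 3.99 and the lowest wild-type library 4.0 CPM. The log2 fold change was -0.34 (SE 0.17). Among *Carm1*-line embryos *Th* stood at 6.31, 5.43 and 5.19 CPM in null and 7.41, 5.63 and 6.34 CPM in wild-type libraries. These groups overlapped (log2 fold change -0.18, SE 0.15, 95% interval -0.49 to 0.12, FDR adjusted P = 0.48).

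*Ddc* (chromosome 11, 11814101 to 11898144, minus strand), the second enzyme, stood at 10.8, 10.4 and 10.8 CPM in *Pax3* null libraries and at 10.5 CPM in each of the 3 wild-type libraries. The groups overlapped and the log2 fold change was 0.021 (SE 0.11), the smallest of the 9 genes in this line. It was 0.0052 in the *Carm1* line (SE 0.11, 95% interval -0.22 to 0.23, FDR adjusted P = 0.98), where null libraries held 11.2, 12.4 and 12.1 CPM and wild-type libraries 12.3, 10.3 and 13.2 CPM.

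Setting *Dbh* against *Th* within a library removes depth and scaling. *Pax3* null libraries held 0.157, 0.169 and 0.0957 *Dbh* counts per *Th* count and their wild-type libraries 0.587, 0.416 and 0.72. The *Carm1* null libraries held 0.496, 0.701 and 0.852 and their wild-type libraries 0.544, 0.847 and 0.577, so that the *Pax3* null embryos alone lay apart from the other 9 libraries. *Dbh* made up 0.608% to 0.945% of the counts of the 9 genes in *Pax3* null and 3.48% to 4.69% in wild-type libraries. Nothing is read from these ratios and shares in the *Pax3* line, because *Dbh* was chosen for its fall there. The summed level of the other 8 genes was 59.0 to 62.41 CPM in *Pax3* null and 58.51 to 60.02 CPM in wild-type embryos, ranges that overlap. Much of that sum is *Chgb* (mean 19.5 CPM in null and 16.4 CPM in wild-type embryos) and *Gata3* (15.5 and 14.5 CPM). *Th* (3.55 and 4.55 CPM) and *Slc18a2* (8.89 and 10.3 CPM) went the other way, so the sum does not show that each gene was unchanged.

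**Figure D1:**
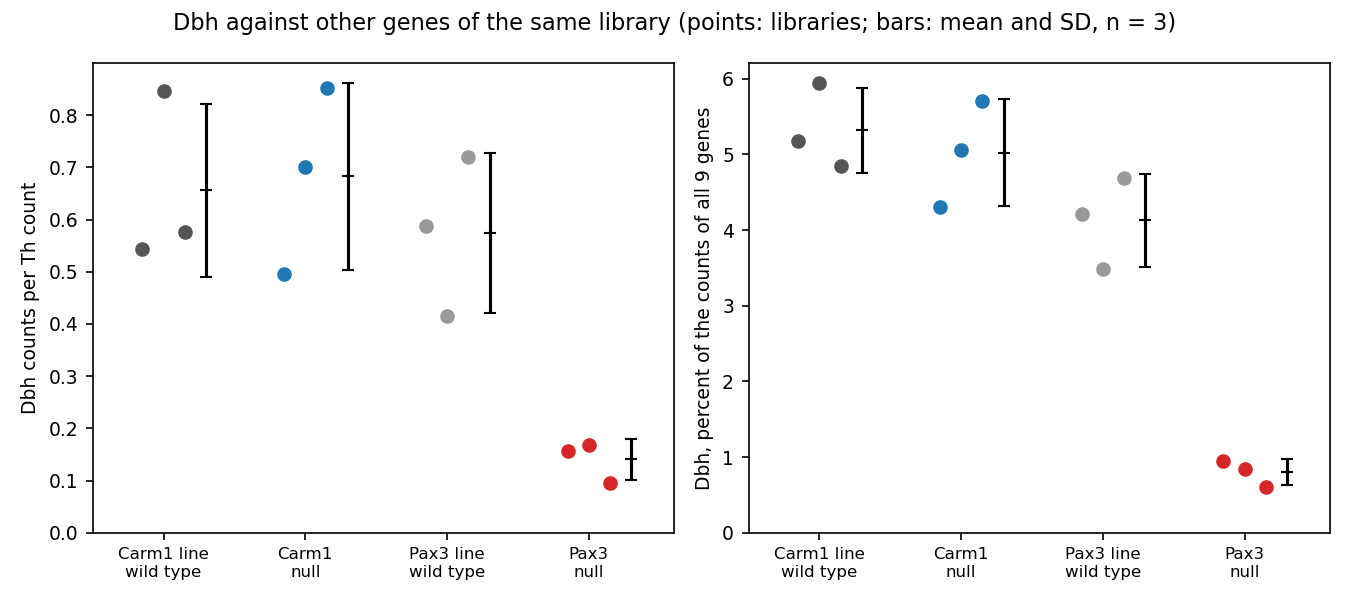
*Dbh* counts per *Th* count (left) and *Dbh* as a percent of the counts of all 9 genes (right) in each library, with the mean and SD of each group (n = 3). The *Pax3* null libraries lie at 0.0957 to 0.169 *Dbh* counts per *Th* count, below every other library, whereas the *Carm1* null libraries overlap their wild types. *Dbh* was chosen for its fall in *Pax3* null embryos, so their low position is a description only.

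*Slc18a2* (chromosome 19, 59260896 to 59296012, plus strand) encodes VMAT2, the vesicular monoamine transporter of neurons, which mast cells and platelets also use. It held 8.54, 9.15 and 8.99 CPM in *Pax3* null and 10.2, 11.4 and 9.36 CPM in wild-type libraries. The groups did not overlap and the log2 fold change was -0.21 (SE 0.11). *Carm1* null libraries held 15.6, 15.9 and 16.2 CPM of it and their wild types 14.5, 15.7 and 13.2 CPM, which overlapped (log2 fold change 0.13, SE 0.094, 95% interval -0.06 to 0.33, FDR adjusted P = 0.39).

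*Slc18a1* (chromosome 8, 69037711 to 69089235, minus strand) encodes VMAT1, the vesicular transporter of chromaffin cells. It was near the limit of the depth in the *Pax3* line, with 7, 19 and 18 counts in null and 19, 7 and 13 counts in wild-type libraries. The groups overlapped (log2 fold change 0.023, SE 0.42), and the sign turned when single libraries were left out, over a range of -0.23 to 0.39, and with a term for Y-linked counts (-0.045 in edgeR). With 25, 19 and 21 counts in *Carm1* null and 27, 23 and 25 in wild-type libraries, these groups overlapped too (log2 fold change -0.027, SE 0.32, 95% interval -0.67 to 0.62, FDR adjusted P = 0.97).

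*Slc6a2* (chromosome 8, 92960079 to 93001667, plus strand) encodes the norepinephrine transporter, which takes norepinephrine back up into the cell. It held 7, 6 and 18 counts in *Pax3* null and 11, 13 and 7 in wild-type libraries. The groups overlapped (log2 fold change -0.17, SE 0.48), and 31 counts in each group bound its summed level only to 0.31 to 0.647 CPM in null and 0.346 to 0.722 CPM in wild-type embryos (exact Poisson 95% intervals). The value rested on single libraries, at -0.80 without null replicate 3, -0.48 without wild-type replicate 3 and 0.15 without wild-type replicate 2, and was 0.014 with a term for Y-linked counts in edgeR. The libraries of the *Carm1* line held 27, 17 and 32 counts in null and 33, 51 and 37 in wild-type libraries. Its log2 fold change of -0.47 (SE 0.28, 95% interval -1.05 to 0.11) was the lowest of the 9 genes in that line and did not pass the test (FDR adjusted P = 0.30).

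*Phox2a* (chromosome 7, 101818313 to 101822726, plus strand) encodes a homeodomain factor that activates the promoter of *Dbh*. It held 1.34, 1.27 and 2.12 CPM in *Pax3* null and 1.32, 2.55 and 1.80 CPM in wild-type libraries, which overlapped (log2 fold change -0.23, SE 0.28). That value was -0.51 without null replicate 3, 0.021 without wild-type replicate 2, -0.50 with offsets for length and GC content and -0.013 with a term for Y-linked counts in edgeR. *Carm1* null libraries held 2.19, 2.97 and 2.24 CPM and overlapped their wild types at 2.61, 2.32 and 2.68 CPM (log2 fold change -0.035, SE 0.23, 95% interval -0.49 to 0.42, FDR adjusted P = 0.95). The sign of the *Carm1*-line value turned without some single libraries and with a term for Y-linked counts.

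*Gata3* (chromosome 2, 9857078 to 9890034, minus strand), which sympathetic neurons need for *Th* and *Dbh* and which the ear, kidney duct and thymus also express, held 15.2, 16.1 and 15.1 CPM in *Pax3* null and 15.2, 13.2 and 15 CPM in wild-type libraries. The groups overlapped (log2 fold change 0.094, SE 0.095). Its level was 13.2, 12.8 and 14.6 CPM in *Carm1* null and 14.6, 16.0 and 13.5 CPM in wild-type libraries, which overlapped (log2 fold change -0.12, SE 0.099, 95% interval -0.32 to 0.08, FDR adjusted P = 0.48).

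*Chgb* (chromosome 2, 132781278 to 132795079, plus strand) encodes chromogranin B, a protein of dense-core granules in neurons and endocrine cells. It held 20.7, 18.0 and 19.8 CPM in *Pax3* null and 16.8, 15.4 and 17 CPM in wild-type libraries. All null libraries lay above all wild-type libraries (log2 fold change 0.25, SE 0.09), the opposite direction to *Dbh*. The groups of the *Carm1* line overlapped, at 18.2, 20 and 19.4 CPM in null and 19.1, 22.4 and 20 CPM in wild-type libraries (log2 fold change -0.097, SE 0.085, 95% interval -0.27 to 0.08, FDR adjusted P = 0.51).

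**Figure D2:**
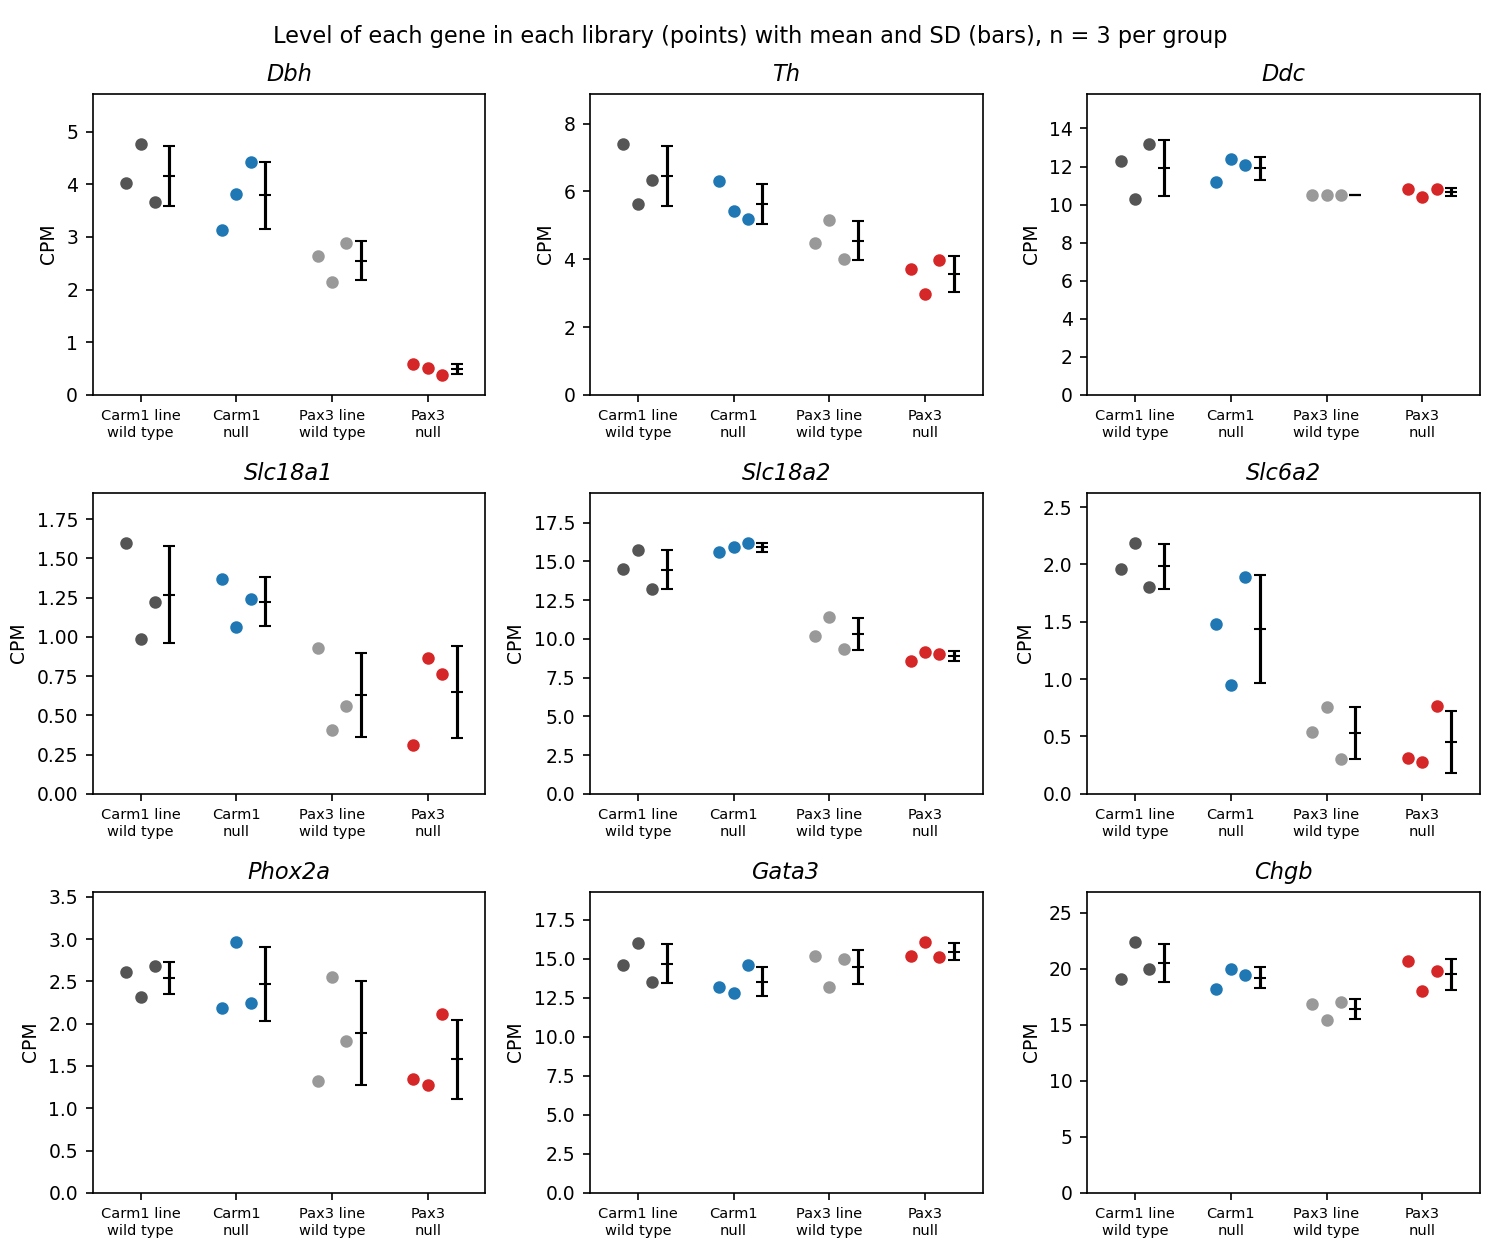
Level in CPM of each of the 9 genes in each library (points) with the group mean and SD (bars, n = 3). *Dbh* in *Pax3* null embryos (0.382 to 0.581 CPM) is set apart from its wild-type libraries, and the other 8 genes show overlapping or adjacent groups.

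All 9 genes passed the filter on low counts in both lines. In the *Carm1* line 0 of the 9 passed edgeR's test, where 13.3% of all 15811 genes tested did, 0 had an unadjusted P under 0.05, and 0 passed in DESeq2. Null and wild-type libraries overlapped for each of the 9, whereas 30.0% of all genes tested had groups that did not overlap. The log2 fold changes ran from -0.47 to 0.13 with a median of -0.097, beside a median of 0.0014 over all genes tested. In the *Pax3* line, 3 of the 9 (*Dbh*, *Th* and *Slc18a2*) had null libraries all lower and 1 (*Chgb*) all higher, where 39.6% of all genes tested had groups that did not overlap (18.9% all lower and 20.7% all higher), and nothing is read from this count because the choice used the same contrast. The median log2 fold change was -0.17, and without *Dbh* it was -0.073 with a range of -0.34 to 0.25. The distance between *Dbh* and the other 8 is larger than the whole range of those 8. Nothing is read from that distance either, because *Dbh* was chosen for this fall.

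**Figure D3:**
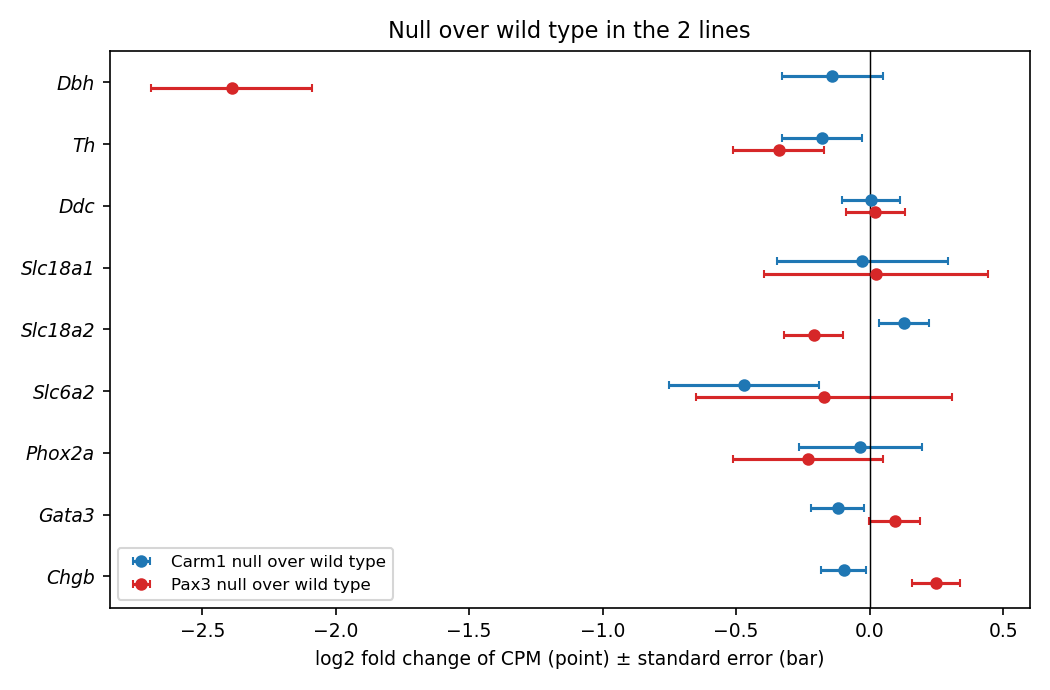
Fitted log2 fold change of null over wild type for each of the 9 genes (points) with its standard error (bars) in the *Carm1* line and the *Pax3* line. *Dbh* in the *Pax3* line stands at -2.39, and the other 17 values lie between -0.47 and 0.25.

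Levels of different genes were compared as CPM per kilobase of exon. *Chgb* was the highest of the 9 in every group (5.99 ± 0.32 CPM per kilobase in *Pax3*-line and 7.47 ± 0.61 in *Carm1*-line wild types) and *Gata3* followed it without overlap in any group. *Slc18a2*, *Th* and *Ddc* came next, between 1.5 and 3.04 CPM per kilobase over the 4 groups, and some neighbours among them overlapped in each group. *Dbh* stood at 1.54 ± 0.21, 1.41 ± 0.24 and 0.948 ± 0.14 CPM per kilobase in *Carm1*-line wild types, *Carm1* nulls and *Pax3*-line wild types, each time below the 3 genes just named and above *Phox2a*, whose libraries it overlapped in the latter 2 groups. In *Pax3* nulls it stood at 0.181 ± 0.037, below *Phox2a* without overlap and above the mean of *Slc18a1* (0.12 ± 0.054), whose libraries it overlapped in part (0.142 to 0.216 against 0.0579 to 0.16). *Slc18a1* and *Slc6a2* were the lowest in every group and overlapped each other in all 4. Between the wild types of the 2 lines, CPM was scaled within each line and strain and colony differ, so the values are only set side by side. *Slc6a2* stood at 1.98 ± 0.196 CPM in *Carm1*-line and 0.53 ± 0.226 CPM in *Pax3*-line wild types, *Slc18a1* at 1.27 ± 0.309 and 0.63 ± 0.268, *Dbh* at 4.15 ± 0.568 and 2.55 ± 0.375, and *Gata3* at 14.7 ± 1.29 and 14.5 ± 1.11.

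The wider pathway and other cell types were read from 13 lists of 129 genes in all. In the *Pax3* line, 41 of the 116 that could be tested passed the quasi-likelihood test of edgeR (12 higher and 29 lower), or 35.3%, beside 24.5% of all 15724 genes tested there (14.0% higher and 10.5% lower). Of the 115 tested in the *Carm1* line, 30 passed (13 higher and 17 lower), or 26.1%, beside 13.3% of all genes (5.49% higher and 7.83% lower). From here on, an amount after "rose by" or "fell by" is a log2 fold change. The lists hold neural, crest, liver and mast cell genes together and were not compared with the other genes by a test. Of the 30 calls in the *Carm1* line, 7 are of the hepatocyte list and 4 of the mast cell list. Because the lists were chosen with earlier results of these data known, nothing is read from these shares.

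**Figure D4:**
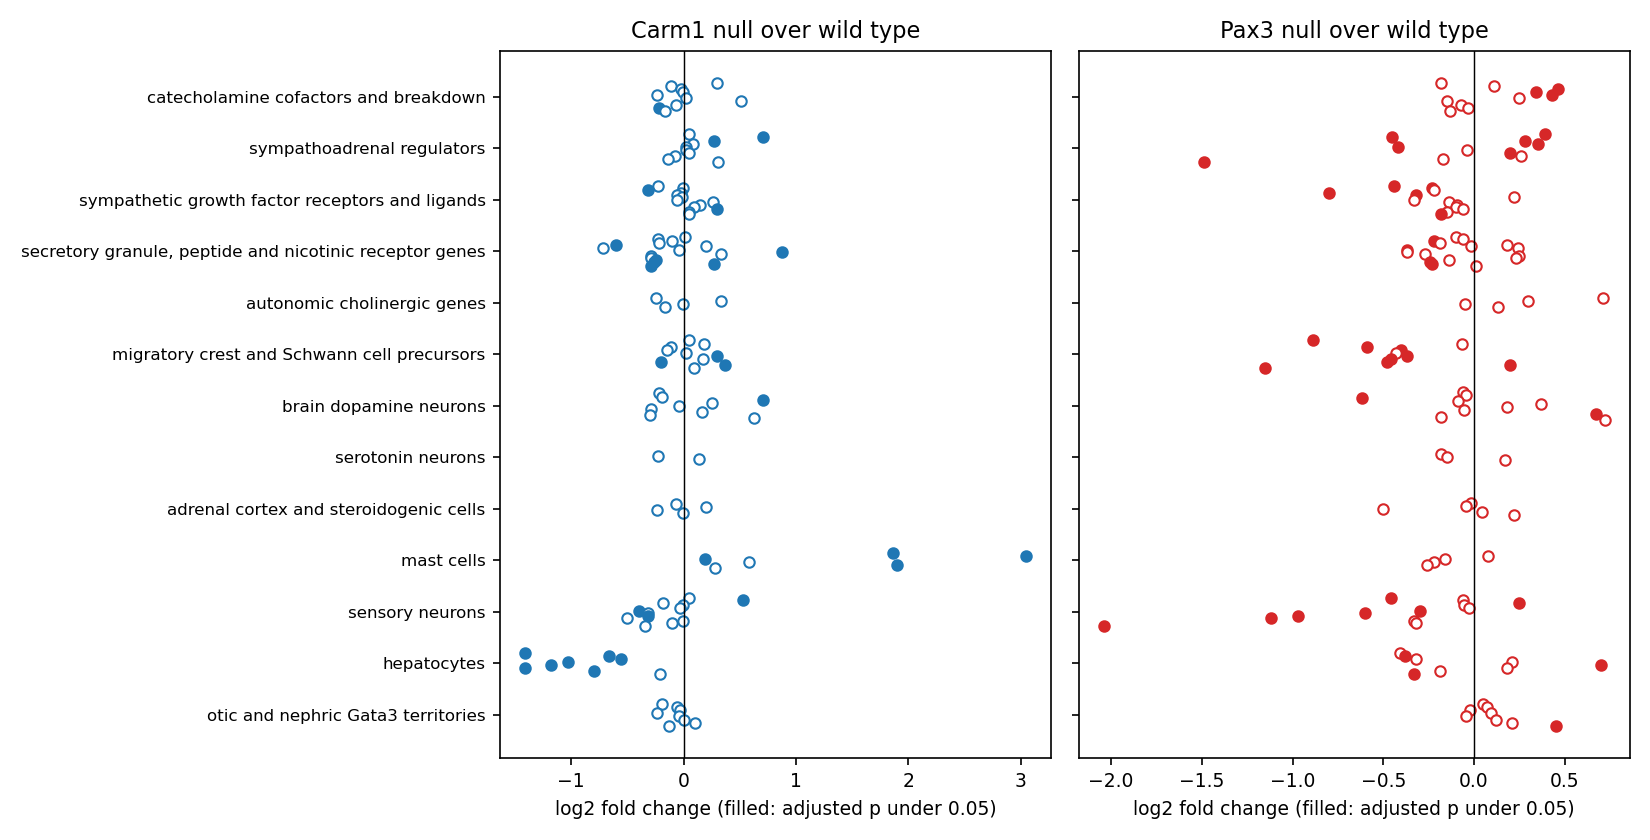
Fitted log2 fold change of null over wild type (horizontal axis) of the genes tested in the 13 lists (rows; 3 genes are not shown) in the *Carm1* line (left) and the *Pax3* line (right), on separate horizontal scales; filled points passed edgeR's test at an FDR adjusted P under 0.05. In the *Pax3* line the crest and growth factor receptor lists lie mostly below 0, with *Gfra3* at -0.80 and *Cdh19* at -1.15, and in the *Carm1* line the mast cell genes reach 3.05 and 7 of 8 liver genes lie below 0 as filled points.

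Of the 10 genes for cofactors and breakdown of catecholamines, 3 passed as higher and 0 as lower in *Pax3* null embryos, with a list median of 0.04. *Spr*, sepiapterin reductase, which completes the synthesis of tetrahydrobiopterin, the cofactor of TH, rose from 27.3 ± 2.54 to 37.4 ± 1.76 CPM (log2 fold change 0.46, SE 0.084, FDR adjusted P = 0.00022). *Qdpr*, which regenerates that cofactor, rose by 0.34 (SE 0.081, FDR adjusted P = 0.003), and *Pcbd1*, which acts in the same cycle, by 0.43 (SE 0.13, FDR adjusted P = 0.021). The call of *Pcbd1* was lost without null replicate 2 or 3 or wild-type replicate 1 or 2 (FDR adjusted P up to 0.10) and with offsets for length and GC content (0.28) or a Y-linked term in DESeq2 (0.075). *Gch1*, the first enzyme of tetrahydrobiopterin synthesis (-0.18, FDR adjusted P = 0.58), and *Pts*, the next (0.11, FDR adjusted P = 0.35), both named after their values were seen, did not pass. Of this list 1 gene passed in the *Carm1* line. *Maoa*, a mitochondrial monoamine oxidase that breaks down norepinephrine, fell from 35.1 ± 2.39 to 30.2 ± 1.2 CPM (log2 fold change -0.22, SE 0.069, FDR adjusted P = 0.031), and leaving out any library but wild-type replicate 1 took it past the threshold (FDR adjusted P up to 0.15), as did DESeq2 (0.11), 1 fit of all 12 libraries (0.056) and the Y-linked term (0.11 in edgeR, 0.40 in DESeq2). *Pnmt*, which turns norepinephrine into epinephrine in the adrenal medulla, was low everywhere, at 0.65 ± 0.15 CPM in *Pax3* null and 0.718 ± 0.119 in wild-type embryos (log2 fold change -0.15, FDR adjusted P = 0.81) and 1.0 ± 0.314 and 0.683 ± 0.285 CPM in the *Carm1* line (0.51, FDR adjusted P = 0.45).

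Transcription factors of the sympathoadrenal lineage moved in both directions in the *Pax3* line, where 4 of 12 passed as higher and 3 as lower. *Tlx2*, a homeobox gene of crest-derived neurons, fell from 4.27 ± 0.21 to 1.52 ± 0.234 CPM (log2 fold change -1.49, SE 0.20, FDR adjusted P = 5.6e-06). *Isl1*, needed by sympathetic, sensory and motor neurons, fell by 0.42 (SE 0.078, FDR adjusted P = 0.00023). *Hand1* also fell, by 0.45 (SE 0.15, FDR adjusted P = 0.031), but lost the call without null replicate 3 or wild-type replicate 1 or 2 (FDR adjusted P up to 0.19), in DESeq2 (0.067) and in 1 fit of all libraries (0.066). *Hand2*, which acts upstream of *Dbh* in sympathetic neurons and is also active in heart, limb and branchial arches, rose from 41.1 ± 2.42 to 54.0 ± 1.48 CPM (log2 fold change 0.39, SE 0.07, FDR adjusted P = 0.00016). The other genes that rose were *Insm1*, *Gata2* and *Sox4*, named after their values were seen to complete the count.

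Of the 12 transcription factors, 2 passed in the *Carm1* line, both higher. *Hand1* rose by 0.71 (SE 0.20, FDR adjusted P = 0.025) and *Gata2* by 0.27 (SE 0.076, FDR adjusted P = 0.014). The call of *Hand1* was lost without null replicate 1 or 3 or wild-type replicate 2 (FDR adjusted P up to 0.13) and that of *Gata2* without null replicate 1 or 2 or wild-type replicate 2 (up to 0.11) or with the Y-linked term in DESeq2 (0.16). *Hand2* did not pass there (0.047, FDR adjusted P = 0.72).

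Of 14 genes for receptors and ligands on which sympathetic neurons depend, 6 passed as lower and 0 as higher in *Pax3* null embryos (list median -0.20). *Gfra3*, the artemin co-receptor, fell by 0.80 (SE 0.16, FDR adjusted P = 0.0007), *Ret*, the signalling receptor of that family, by 0.44 (SE 0.11, FDR adjusted P = 0.0032), and *Gfra1*, the GDNF co-receptor, by 0.32 (SE 0.075, FDR adjusted P = 0.0024). Enteric neurons also express *Ret*. The guidance ligand *Sema3a*, named after its value was seen, was among the 6 (-0.18, SE 0.06, FDR adjusted P = 0.027), and the receptors *Gfra2* (FDR adjusted P = 0.16), *Cxcr4* (0.62) and *Nrp1* (0.06) did not pass. Among the 14 genes, 2 passed as lower and 1 as higher in the *Carm1* line. *Gfra2*, the neurturin co-receptor, fell by 0.32 (SE 0.098, FDR adjusted P = 0.025), and *Cxcr4*, a chemokine receptor of migrating crest cells, rose by 0.30 (SE 0.074, FDR adjusted P = 0.0049). The call of *Gfra2* was lost without any library except wild-type replicate 1 (FDR adjusted P up to 0.09), in DESeq2 (0.095) and with the Y-linked term (0.068 in edgeR, 0.31 in DESeq2). That of *Cxcr4* was lost with the Y-linked term in DESeq2 (0.074). *Ret* did not pass (-0.23, SE 0.10, FDR adjusted P = 0.13).

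Granule, peptide and nicotinic receptor genes summed to 740.0 to 779.1 CPM in *Pax3* null and 792.9 to 819.2 CPM in wild-type libraries, without overlap. Most of that sum is *Dlk1* (mean 404 CPM in null and 402 CPM in wild-type embryos) and *Stmn2* (171 and 202 CPM). In that line 4 of 16 passed, all lower: *Chrna3*, a subunit of the ganglionic nicotinic receptor (-0.37, SE 0.12, FDR adjusted P = 0.022), *Stmn2*, a neuronal microtubule regulator (-0.24, SE 0.06, FDR adjusted P = 0.0053), *Eya1* (-0.23, SE 0.083, FDR adjusted P = 0.039) and the granin gene *Scg3* (-0.22, SE 0.077, FDR adjusted P = 0.04). With offsets for length and GC content all 4 missed the threshold (FDR adjusted P between 0.051 and 0.32), and *Eya1* (0.11) and *Scg3* (0.063) also did with the Y-linked term in DESeq2. Each was also lost without at least 1 library. *Stmn2* was lost without wild-type replicate 3 (0.06), *Chrna3* without null replicate 1 or 3 or wild-type replicate 1 or 2 (up to 0.17), *Eya1* without any null replicate or wild-type replicate 3 (up to 0.26), and *Scg3* without any library except wild-type replicate 2 (up to 0.14). *Chga*, which encodes chromogranin A, another granin, stood at 16.1 ± 0.711 CPM in null and 17.3 ± 1.1 CPM in wild-type embryos (-0.10, SE 0.091, FDR adjusted P = 0.46), and passed with the length and GC offsets (-0.24, 0.046). *Npy*, neuropeptide Y, a co-transmitter of sympathetic neurons, stood at 2.58 ± 0.414 and 2.27 ± 0.518 CPM (0.18, SE 0.22, FDR adjusted P = 0.60), and its sign turned with the length and GC offsets.

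*Carm1* null embryos differed in 6 of the 16 genes tested in this list, 2 higher and 4 lower, where 13.3% of all genes passed, and the list sum was 695.9 to 726.4 CPM in null and 808.5 to 850.2 CPM in wild-type libraries. Most of that sum and of its fall is *Dlk1* (mean 387 CPM in null and 473 CPM in wild-type embryos) and *Stmn2* (153 and 184 CPM). *Npy* held 4.12, 3.19 and 4.42 CPM in null and 6.05, 5.42 and 6.39 CPM in wild-type libraries (log2 fold change -0.60, SE 0.17, FDR adjusted P = 0.012), and without null replicate 2 the value was -0.48 and did not pass (FDR adjusted P = 0.096). *Dlk1*, a surface protein of many embryonic tissues that chromaffin cells keep, fell by 0.29 (SE 0.049, FDR adjusted P = 8.1e-05). *Chrnb4*, the partner subunit of *Chrna3*, rose by 0.88 (SE 0.27, FDR adjusted P = 0.023) and lost the call without null replicate 1 or wild-type replicate 1 or 2 (up to 0.20). *Eya1* rose by 0.27 (SE 0.074, FDR adjusted P = 0.013) and lost it without null replicate 3 (0.065). With the Y-linked term in DESeq2 *Npy* (0.24), *Chrnb4* (0.096) and *Eya1* (0.086) did not pass, and *Chrnb4* did not in DESeq2 without it (0.069). *Stmn2* and *Syt1*, named after their values were seen, also fell. *Chga* did not pass (0.0093, FDR adjusted P = 0.96). None of the 4 autonomic cholinergic genes passed in either line.

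Genes of the crest cells and Schwann cell precursors from which chromaffin cells and part of the sympathetic lineage derive were lower in *Pax3* null embryos. Of 10 genes, 7 passed as lower and 1 as higher (list median -0.45), and their summed level was 375.1 to 394.9 CPM in null and 452.7 to 477.8 CPM in wild-type libraries. *Sox10*, which marks crest and glial cells, held 14.2, 17.2 and 15.5 CPM in null and 28.9, 31.9 and 26.2 CPM in wild-type libraries (log2 fold change -0.89, SE 0.093, FDR adjusted P = 7.8e-08). *Cdh19*, a cadherin of Schwann cell precursors, fell by 1.15 (SE 0.23, FDR adjusted P = 0.00058), *Erbb3*, their neuregulin receptor, by 0.59 (SE 0.082, FDR adjusted P = 7.1e-06), and *Tfap2b*, a crest factor also needed for noradrenergic cells, by 0.48 (SE 0.062, FDR adjusted P = 2.2e-06). *Fabp7* rose, and radial glia of the brain express it as well. The 7 lower genes moved in the direction of *Dbh* in the *Pax3* line and *Fabp7* in the opposite direction. Their part in the level of *Dbh* was not tested.

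The same list had 2 genes higher and 1 lower in *Carm1* null embryos, with a summed level of 486.9 to 502.6 CPM in null and 436.1 to 458.7 CPM in wild-type libraries. *Fabp7* rose by 0.37 (SE 0.06, FDR adjusted P = 0.00027), *Ednrb*, the endothelin receptor of crest cells, by 0.30 (SE 0.049, FDR adjusted P = 4.5e-05), and *Tfap2b* fell by 0.20 (SE 0.053, FDR adjusted P = 0.0077), a call lost without wild-type replicate 2 (0.16). *Sox10* (0.044, SE 0.078, FDR adjusted P = 0.78) and *Erbb3* (-0.11, SE 0.086, FDR adjusted P = 0.45) did not pass there.

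Other cells that use the same genes were followed through their own markers. Of the 10 brain dopamine genes, summed at 91.15 to 109.2 CPM in *Pax3* null and 90.34 to 98.37 CPM in wild-type libraries, *En2*, a hindbrain and midbrain homeobox gene, rose by 0.67 (SE 0.10, FDR adjusted P = 3.8e-05) and *Pitx3*, of midbrain dopamine neurons and the lens, fell by 0.62 (SE 0.16, FDR adjusted P = 0.0061), a call lost without null replicate 2 (0.051) and with the Y-linked term in DESeq2 (0.059). The dopamine transporter *Slc6a3* (0.425 ± 0.0751 against 0.461 ± 0.191 CPM, FDR adjusted P = 0.94) and the dopamine neuron factor *Nr4a2* (19.2 ± 1.43 against 19.8 ± 1.45 CPM, FDR adjusted P = 0.77) did not pass. The serotonin transporter *Slc6a4* did not pass either (2.17 ± 0.36 against 2.38 ± 0.587 CPM, FDR adjusted P = 0.68), nor did the serotonin neuron factor *Fev* (-0.18, FDR adjusted P = 0.77), and *Tph2*, the serotonin-synthesis enzyme of neurons, was too low to test at 0.319 to 0.558 CPM. The 5 serotonin genes summed to 17.12 to 18.96 CPM in *Pax3* null and 15.34 to 17.81 CPM in wild-type libraries. Markers of the adrenal cortex, which surrounds the chromaffin cells, gave 0 calls of 5 tested, and the list of 8 summed to 55.7 to 58.78 and 54.89 to 58.29 CPM. *Nr5a1*, the defining factor of the cortex, stood at 1.63 ± 0.376 and 1.64 ± 0.447 CPM (FDR adjusted P = 0.98), and *Cyp11a1*, a steroid-synthesis enzyme, was too low to test at 0.0894 to 0.39 CPM.

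In the *Carm1* line *Lmx1a*, a roof plate and dopamine progenitor factor, was the only brain dopamine gene to pass (log2 fold change 0.71, SE 0.11, FDR adjusted P = 1.5e-05). *Pitx3* (FDR adjusted P = 0.43), *Nr4a2* (0.075), *Slc6a4* (0.56) and *Nr5a1* (0.92) did not, and *Slc6a3*, *Fev*, *Tph2* and *Cyp11a1* were too low to test. Mast cell genes, relevant to *Slc18a2*, rose there. Of 6 tested, 4 passed as higher and 0 as lower. *Cpa3*, mast cell carboxypeptidase, held 9.60, 9.52 and 9.31 CPM in null and 1.96, 2.45 and 3.36 CPM in wild-type libraries (log2 fold change 1.86, SE 0.16, FDR adjusted P = 6.6e-10), and *Cma1*, a mast cell chymase, 2.66 ± 0.139 and 0.325 ± 0.219 CPM (3.05, SE 0.37, FDR adjusted P = 3.6e-07). *Kit*, which melanoblasts and germ cells share, rose by 0.19 (SE 0.059, FDR adjusted P = 0.031), a call lost without any null replicate or wild-type replicate 3 (up to 0.15), in DESeq2 (0.092), in 1 fit of all libraries (0.096) and with the Y-linked term (0.16 in edgeR, 0.44 in DESeq2). The whole list summed to 74.84 to 77.24 CPM in *Carm1* null and 55.72 to 57.4 CPM in wild-type libraries, with *Fcer1a* at 0 in all of them and *Mcpt4* and *Tpsb2* at 0 in the wild types, and *Kit* makes up most of it. Their part in the level of *Slc18a2*, which did not pass the test, was not tested. In the *Pax3* line 0 of 4 mast cell genes passed, and *Cpa3* stood at 0.605 ± 0.0605 and 0.568 ± 0.314 CPM.

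Many sensory neurons share crest origin with sympathetic neurons. Of 12 sensory neuron genes, 6 passed as lower and 1 as higher in *Pax3* null embryos, and their sum was 191.7 to 200.5 CPM in null and 210.8 to 226.7 CPM in wild-type libraries. *Scn10a*, the sodium channel of nociceptors, fell from 3.48 ± 0.8 to 0.849 ± 0.434 CPM (log2 fold change -2.04, SE 0.29, FDR adjusted P = 1e-05), *Prrxl1* by 1.12 (SE 0.27, FDR adjusted P = 0.0028) and *Prdm12* by 0.97 (SE 0.11, FDR adjusted P = 2.9e-07), both factors of nociceptors. *Runx3*, a factor of proprioceptors, fell by 0.60 (SE 0.21, FDR adjusted P = 0.037) and lost the call without null replicate 2 or 3 or wild-type replicate 2 or 3 (up to 0.19) and in DESeq2 (0.074, and 0.13 with the Y-linked term). In the *Carm1* line *Neurog1*, an early sensory proneural gene, rose by 0.53 (SE 0.11, FDR adjusted P = 0.0014), *Runx1*, of nociceptors and blood cells, fell by 0.40 (SE 0.09, FDR adjusted P = 0.0022) and *Prdm12* fell by 0.32 (SE 0.094, FDR adjusted P = 0.019), a call lost without any null replicate (up to 0.074) and in DESeq2 (0.077). With the Y-linked term in DESeq2 *Neurog1* (0.056), *Runx1* (0.072) and *Prdm12* (0.24) did not pass. The 6 lower sensory genes moved in the direction of *Dbh* in the *Pax3* line. *Neurog2*, named after its value was seen, was the 1 that rose there (0.25, SE 0.083, FDR adjusted P = 0.028). Their part in the level of *Dbh* was not tested.

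Liver and the *Gata3*-expressing ear and kidney duct served as further reference. In *Carm1* null embryos 7 of 8 hepatocyte genes fell, with sums of 846.0 to 1017 CPM in null and 1526 to 1843 CPM in wild-type libraries, among them *Alb* (-1.41, FDR adjusted P = 0.0079), *Serpina1a* (-1.41, FDR adjusted P = 1.1e-07), *Apoa2* (-1.18, FDR adjusted P = 0.046) and *Apoa1* (-1.03, FDR adjusted P = 0.019). The calls of *Apoa2* and *Apoa1* were lost without null replicate 1 or 3 or wild-type replicate 1, and that of *Apoa2* also without null replicate 2 (up to 0.13). In *Pax3* null embryos *Afp* (-0.38, FDR adjusted P = 0.0007) and *Trf* (-0.33, FDR adjusted P = 0.0001) fell and *Apoa2* rose (0.70, FDR adjusted P = 5.8e-07). The call of *Trf* was lost in 1 fit of all 12 libraries (FDR adjusted P = 0.093). Of the 8 ear and kidney duct genes, 0 passed in the *Carm1* line and 1 in the *Pax3* line, *Wnt11* (0.45, SE 0.092, FDR adjusted P = 0.00082).

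The genes whose pattern over the 12 libraries was most like that of *Dbh* were sought by the root mean square difference of log2 CPM, each library taken relative to the mean of its own wild types. Among 14842 genes the 5 nearest were *Ppp1r1c* (0.361), *Scn10a* (0.385), *Cdhr1* (0.424), *Mstn* (0.474) and *Tlx2* (0.515). *Ppp1r1c*, a regulatory subunit of protein phosphatase 1, stood at 1.54 ± 0.41 CPM in *Pax3* null and 6.59 ± 1.19 CPM in wild-type embryos, and *Mstn*, myostatin, a muscle growth inhibitor, at 1.98 ± 0.233 and 5.4 ± 0.664 CPM. *Cdhr1*, a cadherin of photoreceptors and olfactory neurons, stood at 2.55 ± 0.232 and 7.45 ± 0.812 CPM. In the *Carm1* line *Ppp1r1c* stood at 5.56 ± 0.523 CPM in null and 7.56 ± 0.95 CPM in wild-type embryos. Its groups and those of *Scn10a* did not overlap there, whereas those of *Cdhr1*, *Mstn*, *Tlx2* and *Dbh* did. Of the other genes of the set, *Th* was nearest (1.02, rank 727), followed by *Slc18a2* (1.07, rank 2058) and *Phox2a* (1.11, rank 3749), and *Chgb* was the farthest (1.28, rank 11787), while *Slc18a1* was below the mean of 1 CPM required. The 12 libraries share the same contrast that chose *Dbh*, so this ranking describes it and tests nothing.

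The genes around *Dbh* on chromosome 2 were examined after values had been seen. Of 19 tested genes within 500 kb, 4 passed as higher and 1 as lower in the *Pax3* line, with a median log2 fold change of 0.11. Over all genes tested in that line 14.0% passed as higher and 10.5% as lower, and nothing is read from the count. The lower gene was *Tmem8c*, the muscle fusion protein myomaker (-1.10, FDR adjusted P = 3.1e-05), and the 2 neighbours on either side, *Fam163b* (-0.66, FDR adjusted P = 0.18) and *Sardh* (0.16, FDR adjusted P = 0.20), did not pass.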

How the data were processed

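RNA-seq was available for 12 whole embryos at E12.5. The deposited counts are whole numbers and were not normalized. To make them, the authors enriched polyadenylated RNA, mapped the read pairs with STAR (mm10) and summed exon reads by gene in featureCounts. Tool versions and the strand setting are not given in the sources used here. Groups and replicate numbers came from the sample labels. The 9 genes, the 13 lists and the rule for named genes were chosen with earlier results of these data known. Genes named are the 9 genes, the targeted genes, the 4 largest called changes per list and line with a mean of at least 1 CPM, the defining markers, and the 5 genes most like *Dbh*. Of these and the list genes, 3 are not reported here, though the list counts include them.

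Each line was fitted in R 4.3.3 by the robust quasi-likelihood test of edgeR 4.0.16 after TMM scaling and filterByExpr, with Benjamini-Hochberg adjustment over all genes tested and a threshold of 0.05, and the difference between lines as an interaction over 12 libraries. CPM uses TMM-scaled library sizes. Fold changes of low genes rest on few counts. Alternatives were DESeq2 1.42.0, RLE and upper-quartile factors, no filter, at least 10 counts in every library, 1 fit of all libraries, a term for libraries with at least 100 Y-linked counts, offsets for length and GC content (splines with 5 degrees of freedom), a replicate block, and fits without each library. The fits were tested on simulated counts. In the *Carm1* line only wild-type replicate 3 had at least 100 Y-linked counts. The Y-linked term there thus came close to leaving that library out (*Dbh* at -0.23 in edgeR both ways) and is no separate check. The replicate numbers were not taken to pair the samples, since the deviations of same-numbered null and wild-type samples did not correlate above 0.1 in every pair (correlations of -0.0679, -0.00788 and -0.048 in the *Carm1* line and 0.206, -0.0957 and 0.295 in the *Pax3* line, where 2 of the 3 pairs did). GENCODE (GRCm38, the build of mm10) matched 21785 of the 23420 symbols as written and 1260 by an older symbol. The list gene *Drgx* is in the tables as *Prrxl1*.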

Additional observations from a re-analysis of the deposited data

Results flagged for a closer look

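The effects of the 2 lines (null minus wild type, log2) differed for 32 of 54 named genes outside the set of 9 by the interaction term in edgeR (quasi-likelihood test, Benjamini-Hochberg over 16292 genes; FDR adjusted P between 2.4e-10 and 0.041), where 19.1% of all genes tested passed. The difference was not computed for the 9 genes, since their choice used the *Pax3* line, and is left out for the 5 genes most like *Dbh*, whose choice used both lines. Most of the others were named for a large change in 1 line or are the targets, which favours a difference, so nothing is read from their number. Each value below is the *Carm1* effect minus the *Pax3* effect.

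The targeted genes differed by -0.92 (*Carm1*) and 0.82 (*Pax3*). Among genes of the noradrenergic pathway and its regulators, the difference was -0.47 for *Spr*, -0.33 for *Qdpr*, -0.65 for *Pcbd1*, 1.17 for *Hand1*, 0.46 for *Isl1* and -0.33 for *Hand2*. Among receptors it was 0.78 for *Gfra3*, 0.27 for *Gfra1* and 0.37 for *Cxcr4*. Among granule, peptide and receptor subunit genes it was -0.77 for *Npy*, 1.26 for *Chrnb4*, 0.51 for *Eya1* and -0.29 for *Dlk1*.

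Among crest and Schwann cell precursor genes the difference was 0.95 for *Sox10*, 0.48 for *Erbb3*, 0.69 for *Ednrb*, 0.28 for *Tfap2b* and 1.25 for *Cdh19*, all toward a lower value in *Pax3* null embryos. Among markers of other cells it was 0.82 for *Lmx1a*, -0.50 for *En2*, 1.79 for *Cpa3*, 4.37 for *Cma1*, 0.35 for *Kit*, 0.60 for *Neurog1*, 0.66 for *Prdm12*, -0.57 for *Wnt11*, -0.99 for *Alb*, -1.23 for *Apoa1*, -1.86 for *Apoa2* and -1.58 for *Serpina1a*. The size for *Cma1* is poorly bound (SE 1.4). It had 2, 0 and 0 counts in *Pax3* null and 0, 3 and 2 in wild-type libraries, too few to test in that line alone.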

How the results depend on the processing

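The log2 fold change of *Dbh* in the *Pax3* line stayed between -2.53 and -2.24 in all settings that gave a value. The count of called members in the *Carm1* line was 0 in every setting, and with at least 10 counts in every library *Dbh*, *Slc18a1* and *Slc6a2* could not be tested in the *Pax3* line. Calls over all genes in the *Carm1* line, 2106, were 864 with a term for Y-linked counts in DESeq2, 1435 in DESeq2 with default settings, and 1224 to 2290 when single libraries were left out, with 1224, 1381 and 1349 without null replicate 1, null replicate 2 and wild-type replicate 2. Calls in the *Pax3* line, 3851, were 2454 to 4103 when single libraries were left out, with 2565 and 2454 without null replicates 1 and 3, and the share of higher calls, 57.1%, was 67.9% with length and GC offsets. The 30 list genes called in the *Carm1* line were 17 with the Y-linked term in DESeq2 and 20 to 31 without single libraries. Directions turned for values near 0. With the Y-linked term in DESeq2 and edgeR, *Phox2a* in the *Carm1* line was 0.0073 and 0.0099 and *Nr5a1* in the *Pax3* line 0.19 and 0.18, *Nr5a1* in the *Carm1* line was 0.016 in DESeq2, and *Cpa3* in the *Pax3* line -0.13 in edgeR. With length and GC offsets *Npy* (-0.12) and *Nr4a2* (0.012) in the *Pax3* line and *Chga* (-0.009) in the *Carm1* line turned. Without single libraries the ranges spanned 0 in the *Carm1* line for *Ddc* (-0.094 to 0.087), *Slc18a1* (-0.19 to 0.16), *Phox2a* (-0.19 to 0.045), *Hand2* (-0.0043 to 0.14), *Sox10* (-0.023 to 0.099), *Erbb3* (-0.18 to 0.011), *Nr5a1* (-0.28 to 0.068) and *Chga* (-0.074 to 0.075), and in the *Pax3* line for *Slc18a1* (-0.23 to 0.39), *Slc6a2* (-0.80 to 0.15), *Phox2a* (-0.51 to 0.021), *Cpa3* (-0.14 to 0.61), *Slc6a3* (-0.38 to 0.22), *Nr4a2* (-0.09 to 0.017), *Slc6a4* (-0.28 to 0.088) and *Nr5a1* (-0.21 to 0.21). Each named list gene was paired with each setting. A call was lost in 35 such pairs for the processing, beside 663 pairs labelled the same. For fits that left out a library it was lost in 62 pairs, beside 350 labelled the same. The causes were not tested. With the replicate number as a block, calls were 1787 in the *Carm1* line, 4177 in the *Pax3* line and 3094 for the interaction, and not every sample correlated best with its own number. *Dbh* and *Slc6a2* rest on few counts in the *Pax3* line, which limits their precision.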
